A study of Mus musculus with 21 samples.

Results

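Mouse embryonic stem cells (ESCs) grown with serum were compared with ESCs grown without serum, all on feeder cells, by the single-nucleotide variants (SNVs) called in exome-enriched genomic DNA. The serum side was the condition SL, with 2 libraries, and the serum-free side was 2iL, A2iL and LCDM, with 2 libraries each and 6 in all. These 8 of the 21 samples of the series were chosen by their labelled culture condition, and all calls in their lists entered the comparison. SL cells were kept in KO-DMEM with 15% fetal bovine serum and mouse leukaemia inhibitory factor (LIF, 1000 IU). The serum-free cells were kept in N2B27, also with LIF at 1000 IU. To this 2iL added the GSK3 inhibitor CHIR99021 at 3 µM and the MEK inhibitor PD0325901 at 1 µM. A2iL added CHIR99021 at 3 µM and the Src inhibitor CGP77675 at 1.5 µM, and LCDM added CHIR99021 at 3 µM with Dim and Mih, so spelled in the labels, at 2 µM each. The labels give the strain C57BL6X129S6F1 for all of them, call the cells an embryonic stem cell line, and number the libraries 3 and 5 without saying what the numbers stand for. Because nothing says that the libraries came from separate lines or cultures, the p-values below measure the spread between libraries, which may be technical. Serum and basal medium changed together, so an effect of serum itself and one of N2B27 with CHIR99021 cannot be told apart. Variant lists hold no expression, so the labelled cell type was not checked against markers.

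As background, serum with LIF is the older way to keep mouse ESCs undifferentiated. LIF acts through STAT3, and the BMP activity of serum acts through SMAD proteins, while FGF4 made by the cells drives ERK signalling towards differentiation. All 3 serum-free media hold a GSK3 inhibitor, which stabilises beta-catenin. PD0325901 in 2iL blocks the ERK pathway at MEK, and CGP77675 in A2iL blocks Src kinases. Serum cells are known for a heterogeneous, partly primed expression state and high DNA methylation, whereas MEK inhibition is known for low methylation.

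An SNV call was a difference from a shared control, genomic DNA of mouse embryonic fibroblasts (MEFs) of the same labelled strain. The control was not always free of the called base. It had alternative reads at 5.96 to 6.24% of the calls in SL and at 6.13 to 7.14% in the serum-free libraries. The SL libraries held 1813 and 1762 calls, against 1810 and 1858 in 2iL, 1839 and 1821 in A2iL, and 1783 and 1795 in LCDM. SL 3 lay inside the serum-free range and SL 5 below it. The mean was 1787.5 ± 36.1 calls in SL and 1817.7 ± 27.8 in the serum-free libraries (SD, n = 2 and 6), a difference of -30.2 that did not pass an exact two-sided permutation test (p = 0.286). It was -55.7 without SL 3 and -4.67 without SL 5, and shrank to -3.5 with at least 5 alternative reads and to -12.3 with at least 20 reads. That test sets the 2 SL libraries against every choice of 2 of the 8, of which there are 28, so its smallest p is 0.0357. It treats the 8 libraries as exchangeable, although each medium has 2 of them and most other choices mix media. Its p-values, here and below, therefore do not measure the spread between media. Median depth at the calls was 69 and 59 reads in SL and 54 to 72 in the serum-free libraries, and 59 to 64 in the control. A call needed only 2 alternative reads in any of the lists. PCR reads are not independent molecules, so intervals on fractions cover counting error only. The calls of 1 list were spaced by over 10 kb, the smallest gap being 10017 to 10033 bp, so a site can be missing from a list that holds another call nearby. Each absence is therefore given with the nearest call of the other side. A list has no reads for a site it did not call, so depth at an absent site was not analysed here.

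Called bases in promoter windows show how a site found on both sides looks beside a site of 1 side. Windows of RefSeq (GRCm38.p6), reaching from 250 bases before to 50 bases after a gene's start, held 78 called sites. Of these 45 were called on both sides, 30 in serum-free libraries only and 3 in SL only. Over all 4069 sites of the 8 libraries the shares were 50.6% on both sides, 41.1% serum-free only and 8.33% SL only. The promoter counts likewise set 6 lists against 2. The annotated strand's base matched the listed one in all 80 pairs of site and window. The 6 stretches below were chosen after their calls were seen. They run 5′ to 3′ on the gene's strand with up to 14 bases on each side, and the capital letter is the called base.
Elmo2, both sides (chr2:165316385-165316413, minus strand): gtgcactgtgagaaCgagcaggaaggcac
Mup2, SL only (chr4:60139958-60139986, minus strand): acaaaccctgacagAggtagaggagaccc
Defa30, SL only (chr8:21134661-21134689, plus strand): ccatgaagacactaAtcctcctctctgcc
Rpl32l, serum-free only (chr10:20208468-20208488, plus strand): ctgccatctgttttGcggcat
Zfp626, serum-free only (chr7:27807016-27807044, plus strand): actcctatgtgcttCcaatttgtgtgtgg
Zfp626, both sides (chr7:27807107-27807135, plus strand): atgacatcacagtgAcagaagtcagcctg

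Elmo2, an adaptor of Rac activation in cell migration, carried its call, annotated as intronic and 48 bases before the start, in all 8 libraries. It stood in 11 of 22 and 10 of 14 reads in SL, against 5 of 21 and 8 of 17 in 2iL, 10 of 16 and 13 of 26 in A2iL, and 10 of 16 and 8 of 16 in LCDM. The groups overlapped. The SL-only call near Mup2, a major urinary protein gene, rested on 10 of 231 reads in SL 3, and 5 serum-free libraries had another call within 10 kb, the nearest 141 bp away. The SL-only call in Defa30, a defensin gene that the lists name Gm15284, had 11 of 153 reads in SL 3, with calls of all 6 serum-free libraries within 10 kb, the nearest 77 bp away. This Defa30 base lay 26 bases after the start and was annotated as exonic. Both windows lie in segmental duplications. The call in Rpl32l, a gene named for a ribosomal protein, was made in both 2iL libraries, A2iL 3 and LCDM 5 at fractions of 0.055, 0.054, 0.08 and 0.055, with no SL call within 114653 bp. In the Zfp626 promoter 2 sites were called in different libraries. The site 166 bases before the start of this zinc finger gene was called in A2iL 3, A2iL 5 and LCDM 5 only. A site 91 bp from it, 75 bases before the start, was called in both SL libraries and in 2iL 3, 2iL 5 and LCDM 3, so no list held both, and whether a library carried both bases was not analysed here.

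The sites found on 1 side only were counted over the whole lists. Together the 8 libraries held 4069 distinct sites, of which 666 (16.4%) were called in all 8 and 2058 on both sides. SL only were 339 sites (8.33%), 25 of them in both SL libraries and 314 in 1. Serum-free only were 1672 sites, 1104 of them in 1 library and 10 in all 6. These totals differ because 6 lists hold more sites than 2, so the SL pair was set against every other pair of the 8 libraries. The 339 sites of the SL pair were the fewest of the 28 pairs, the other 27 having 341 to 415 with a median of 375. The pairs of 1 serum-free medium had 412 (2iL), 391 (A2iL) and 395 (LCDM). The SL count differed from the mean of all pairs by -36.3, which did not pass the exact two-sided permutation test over pairs (p = 0.143). The difference shrank to -2.07 with at least 5 alternative reads (exact permutation p = 0.964), and was -16.0 without SL 3 and -20.9 without SL 5. Without A2iL 5 it was -48.1, at the smallest p that leaving out a serum-free library allows (exact permutation p = 0.0476).

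Sites called in both libraries of the pair and absent from the rest did not set SL apart. The SL pair had 25, against 40 in the 2iL pair, 24 in A2iL and 30 in LCDM, and 9 to 40 over all other pairs (exact permutation over pairs, two-sided p = 0.5). Sites called in all 6 other libraries and missing from the pair numbered 10 for SL and 3 to 14 for the other pairs (exact permutation p = 0.5). Of the 339 SL-only sites, 154 (45.4%) had no serum-free call within 10 kb, against 152 to 206 such sites in the other pairs (exact permutation p = 0.0714). Only 1 pair, of SL with a serum-free library, had fewer than 154.

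**Figure D1:**
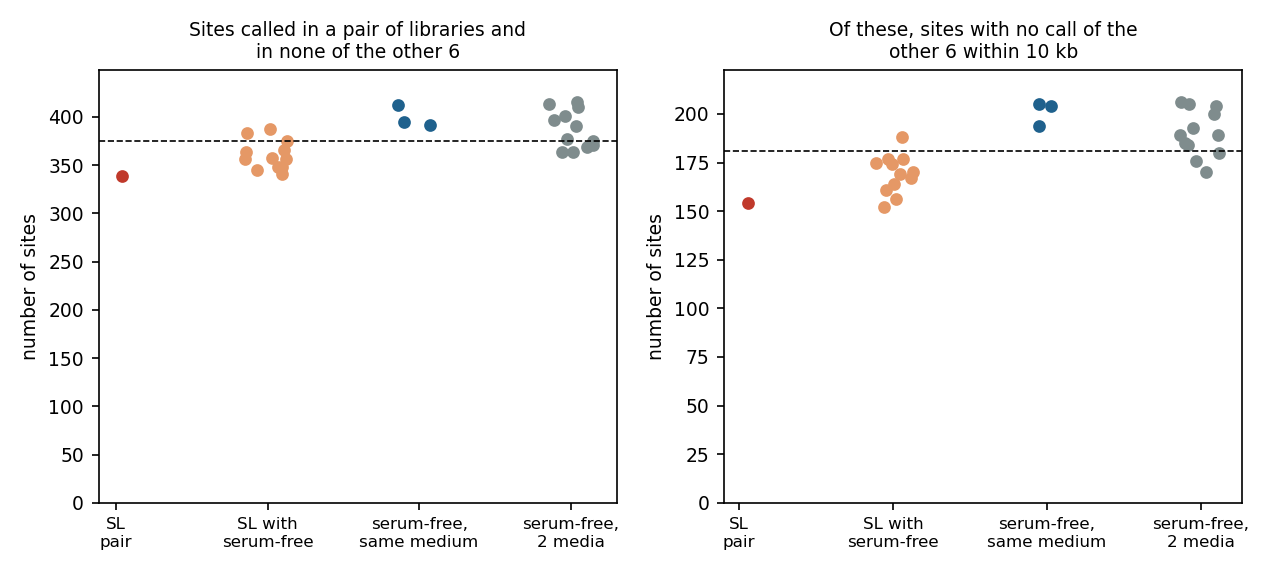
Number of sites called in a pair of libraries and in none of the other 6 (left), and of those with no call of the other 6 within 10 kb (right), for all 28 pairs of the 8 libraries. Each point is a pair, and the dashed line is the mean of all pairs (375.3 on the left, 181 on the right). The SL pair, at 339 and 154, lies below both lines, at the lower end of the pairs of an SL with a serum-free library.

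The SL-only sites were low in depth and fraction, as were those of other pairs. Their median depth was 36.5 reads and their median fraction 0.1775, against 32 to 42 reads and 0.143 to 0.2 in the other pairs. Segmental duplications held 49.0% of them and repeats 25.7%, against 42.6 to 51.2% and 18.9 to 28% in the other pairs. Of the 339, 38 were exonic, 118 intronic and 153 intergenic. They included 24 protein-changing sites, against 16 to 44 in the other pairs, and 37.5% were C>T, against 32.6 to 41.7%. In the 2iL-F libraries, the 2iL medium without feeders, 56 of the 339 (16.5%) were called as well, against 12.5 to 20.5% for the other pairs. None of 8 such descriptors passed the exact permutation test over pairs (lowest adjusted p = 0.821, Benjamini-Hochberg over the 8, where a single one cannot go below 0.286).

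The call shared by both SL libraries that changes a protein was in Garem, which encodes an adaptor of growth factor receptors that feeds the ERK pathway. The change was C664S, in exon 6 at chr18:21129765 (mm10). SL 3 carried it in 24 of 93 reads, a fraction of 0.258 (exact 95% interval 0.173 to 0.359), and SL 5 in 18 of 86, 0.209 (0.129 to 0.31). No serum-free library on feeders had this call. All 6 had another change in the same gene instead, R528Q, 1718 bp away, at fractions of 0.271 and 0.3 in 2iL, 0.385 and 0.265 in A2iL, and 0.382 and 0.31 in LCDM. Each of the changes was also called in 1 library of 2iL-F. Since a list keeps no calls closer than 10 kb, whether the libraries carried the other Garem change too was not analysed here.

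Of the 24 other sites called in both SL libraries and no serum-free library on feeders, 9 had no serum-free call within 10 kb. They were chosen for description after their values were seen. The one outside both duplications and repeats was in an intron of Myh7b, a myosin heavy chain gene, with 4 of 27 reads in each SL library. It was also called in 1 2iL-F library. Gpatch8 E837E, a synonymous change in an RNA-binding protein gene (chr11:102480200, in a repeat), had 3 of 30 and 3 of 26 reads. A call in the 3′ untranslated region of Dctd, whose enzyme deaminates deoxycytidylate, had 4 of 43 and 3 of 25 reads, also in a repeat. The intronic calls in Dis3l2, an RNA exonuclease gene, and Col14a1, a collagen gene, rested on 2 reads in each library, at depths of 8 and 5 and of 7 and 3. The other 4 lay in segmental duplications: Klra14-ps, of the natural killer receptor cluster, with 5 of 49 and 4 of 61 reads, Gm2042 with 5 of 112 and 4 of 93, and a pair of intergenic sites on chromosomes 5 and 12. The 5 outside duplications had at most 4 alternative reads in a library. The remaining 15 had a serum-free call within 10 kb.

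The 23 protein-changing sites seen in 1 SL library had 2 to 135 alternative reads, with a median of 6. Over all 339 SL-only sites, 49.0% lay in segmental duplications and 45.4% had no serum-free call within 10 kb. Of the 24 SL-only protein-changing sites, 10 lay in segmental duplications and 7 had no serum-free call within 10 kb, of which 4 lay outside duplications. Clip3 M288L, in a microtubule-associated linker protein gene (chr7:30298992), had 7 of 43 reads in SL 3, a fraction of 0.163 (exact 95% interval 0.0681 to 0.307). The mean base quality of those reads was 18, against a library median of 36. Pla2g12b A131T, in a secreted phospholipase-like protein of lipoprotein metabolism (chr10:59416438), had 3 of 46 reads in SL 5 (0.0137 to 0.179). Gtf2ird2 V500M, in a gene of the TFII-I transcription factor family (chr5:134216399, in a repeat), had 3 of 43 reads in SL 5 (0.0146 to 0.191). Ccdc155 T190N, in the meiotic telomere-anchoring protein KASH5 (chr7:45195570), had 3 of 35 reads in SL 3 (0.018 to 0.231). None of the 4 was called in 2iL-F.

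In the other direction, 138 protein-changing sites were called in serum-free libraries only, 52 of them in segmental duplications and 73 without an SL call within 10 kb. On both sides there were 222, and 6 lists here face 2. Over all sites, 41.1% were serum-free only, 8.33% SL only and 50.6% on both sides. Of all 1672 serum-free-only sites, 48.8% lay in segmental duplications and 54.4% had no SL call within 10 kb. The 3 called in all 6 serum-free libraries were Garem R528Q, Psmb3 Q145P and Psg27 F151I. Psg27, of the pregnancy-specific glycoprotein family, carried F151I (chr7:18562068, exon 3) at fractions of 0.034 and 0.031 in 2iL, 0.049 and 0.051 in A2iL, and 0.047 and 0.053 in LCDM. This is 70 of 1600 reads in all, and it was called in both 2iL-F libraries as well, while the nearest SL call lay 52903 bp away. The MEF control had 1 alternative read of 304 at this site. Psmb3 encodes a beta subunit of the proteasome, and its Q145P (chr11:97711239) had fractions of 0.098 and 0.067 in 2iL, 0.063 and 0.077 in A2iL, and 0.051 and 0.083 in LCDM. SL 5 had instead Psmb3 G148R, 8 bp away, in 8 of 175 reads.

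Prr14l R54C (chr5:32844355) was called in 5 serum-free libraries at fractions of 0.04 to 0.13, with no SL call within 510723 bp. The next were called in 4 serum-free libraries each. Hrnr H2249Y, in the epidermal protein hornerin, lay in a segmental duplication and had fractions of 0.256 and 0.263 in 2iL and 0.215 and 0.232 in A2iL, with no SL call within 38588 bp. For the other 4 both SL libraries had a different call nearby. Ifna9 T92S, in a type I interferon gene, faced Ifna9 V66M in SL, 78 bp away. Rbks F131L, in ribokinase, faced the synonymous Rbks I151I, 62 bp away, at fractions of 0.547 and 0.365 in SL. Bcam N227D, in a laminin-binding adhesion molecule, faced a call in the same gene 8900 bp away, and Hjurp A92V, in the chaperone of the centromeric histone CENP-A, faced a call 4542 bp away. Of the 10 sites called in all 6 serum-free libraries and not in SL, 3 had no SL call within 10 kb, and 9 were called in 2iL-F too.

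Counted by gene, 1158 genes held a site in SL and 1572 in the serum-free libraries, 1058 of them in both. Genes with sites in SL only numbered 100, against 88 to 138 for other pairs of libraries (median 118). The SL pair differed from the mean of all pairs by -14.8 (exact permutation over pairs, two-sided p = 0.25). Without SL 5 the sign turned, at 0.714. The 7 genes found in both SL libraries and no serum-free library were Col14a1, Gm2042, Gm7120, Gpatch8, Klra14-ps, Myh7b and Olfr130. Psg27 and Rpl32l were the 2 genes found in all 6 serum-free libraries and in neither SL library. No gene had 3 SL-only sites. Genes with 2 included Klra12, Klra15 and Klra21, of the natural killer receptor cluster, and Olfr130, an olfactory receptor gene, families with many similar copies. A site listed under several gene names was counted for each of them. Whether the Klra genes share the same sites was not analysed here.

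Genes of 7 chosen lists held 33 sites, of which 1 was SL only, against an SL-only share of 8.07% over all sites assigned to genes. Not all of these lists are pathways in which the media are known to differ. Of 29 pluripotency genes, 4 held 5 sites: 3 were serum-free only, 2 were on both sides and none was SL only. For 40 genes of serum, FGF and ERK signalling these numbers were 4 sites, 2 serum-free only and 2 on both sides. The 25 genes of BMP, TGF-beta and activin signalling held 1 site, serum-free only. The 21 genes of DNA methylation and demethylation held 2 sites, both called in all 8 libraries. Among 55 genes of DNA repair and checkpoint were 4 sites, 1 SL only, 2 serum-free only and 1 on both sides. The 33 cell cycle and p53 genes held 8 sites, none SL only, 3 serum-free only and 5 on both sides. The 38 genes of cell adhesion and extracellular matrix held 9 sites, none SL only, 4 serum-free only and 5 on both sides. Over all 2243 sites assigned to genes, 181 (8.07%) were SL only and 907 (40.4%) serum-free only.

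The SL-only site of these lists was intronic in Atm, the kinase that signals DNA double-strand breaks, with 2 of 6 reads in SL 5 (exact 95% interval 0.0433 to 0.777). The serum-free-only sites were carried by 1 to 3 libraries each. Nanog, a core pluripotency factor, carried P61H in 2iL 5 with 7 of 21 reads. Both SL libraries and 5 of the serum-free libraries had Nanog P72T instead, 32 bp away, at fractions of 0.263 and 0.143 in SL and 0.258 to 0.303 in the serum-free libraries. Cdk4, a kinase of the G1 phase, carried V51I in A2iL 3 and LCDM 5 at 0.243 and 0.299. The SL libraries had Cdk4 A23T, 84 bp away, at 0.222 and 0.25. Ccnb2, cyclin B2, carried T294M in both 2iL libraries, and the SL libraries had the synonymous C314C, 61 bp away. All 3 genes thus held calls on both sides.

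Other serum-free-only sites of the lists had no SL call within 10 kb. Pdgfra A530S, in a growth factor receptor, had 4 of 89 reads in 2iL 5. Lama2 T3117N, in a laminin subunit, had 3 of 40 reads in LCDM 3, and a second, intronic Lama2 site was called in 3 serum-free libraries. Ptk2 L113L, synonymous in focal adhesion kinase, had 5 of 64 reads in 2iL 5. The rest were intronic calls in 1 serum-free library on feeders each, in Stat3, Dppa4, Smad1, Egfr, Yes1, Rb1, Parp1 and Wrn, with 2 to 7 alternative reads. Stat3 and Dppa4 were also called in both 2iL-F libraries.

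The lists held 6 sites called in all 8 libraries. Those of DNA methylation and of the cell cycle are described here, a choice outside the naming rules given below. The lists of serum, FGF and ERK signalling, of DNA repair and of cell adhesion held 1 such site each, not described here. The K383R change of the DNA methyltransferase Dnmt3b had fractions of 0.225 and 0.215 in SL. The serum-free values were 0.194 and 0.168 in 2iL, 0.186 and 0.25 in A2iL, and 0.221 and 0.229 in LCDM. The groups overlapped (log2 odds difference 0.09 ± 0.24 SE, limma, adjusted p = 0.948). Mbd1, a reader of methylated DNA, had an intronic site with fractions of 0.25 and 0.375 in SL, against 0.385 to 0.538 in the serum-free libraries. Here the groups did not overlap, at 12 to 26 reads, and the difference did not pass (-0.92 ± 0.52 SE, limma, adjusted p = 0.727). R134C of Ccne1, the gene of the G1-to-S cyclin E1, had 0.667 and 0.591 in SL. It had 0.542 and 0.517 in 2iL, 0.628 and 0.635 in A2iL, and 0.318 and 0.293 in LCDM. LCDM was low and the SL values lay around those of A2iL (0.78 ± 0.48 SE against all 6, limma, adjusted p = 0.727).

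The shares of the 6 kinds of substitution gave no call, in a test where a single class cannot have an adjusted p below 0.214. Classes were folded by strand, and C>T made up 38.3 and 38.3% of the calls in SL, against 37.5 to 40.2% in the serum-free libraries. The difference of means was -0.156 percentage points (exact two-sided permutation p = 0.821). C>A came closest to the threshold, with 12.9 and 12.6% in SL and 11.8 to 12.5% in the serum-free libraries, groups that did not overlap. Its difference was 0.549 points (exact permutation p = 0.0714, adjusted p = 0.429 over the 6 classes). At sites outside duplications and repeats C>A made up 12.0 and 11.4% in SL and 10.8 to 11.4% in the serum-free libraries. That difference of 0.633 points was at the smallest p possible (exact permutation p = 0.0357, adjusted p = 0.214). The other 4 classes had an adjusted p of 0.893 (exact permutation). Transitions, C>T with T>C, made up 60.2 ± 1.02% of calls in SL and 60.3 ± 1.25% in the serum-free libraries (SD, n = 2 and 6). Their difference of -0.0462 points was far within the spread (exact permutation p = 0.964).

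Region and consequence shares gave no call either. Intergenic calls made up 40.1 and 40.9% in SL and 39.2 to 40.7% in the serum-free libraries. Exonic calls made up 21.5 and 21.9% in SL and 20.8 to 23.5% in the serum-free libraries, and intronic calls 27.9 and 27.7% in SL and 26.4 to 28.8% in the serum-free libraries. Over the 7 region classes with at least 20 calls in every library, the adjusted p was 0.75 throughout (exact permutation). A single class could not have gone below 0.25 there. Of the coding calls, 52.7 and 50.5% changed the protein in SL and 50.9 to 53.5% in the serum-free libraries. The difference was -0.627 points (exact permutation p = 0.536), and without SL 5 it was 0.462. Stop gains were rare. Each SL library had 2, against 3 and 3 in 2iL, 4 and 2 in A2iL and 4 and 3 in LCDM (exact permutation p = 0.0714 for their share, adjusted p = 0.214 over the 3 consequence classes, where a single class cannot go below 0.107).

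**Figure D2:**
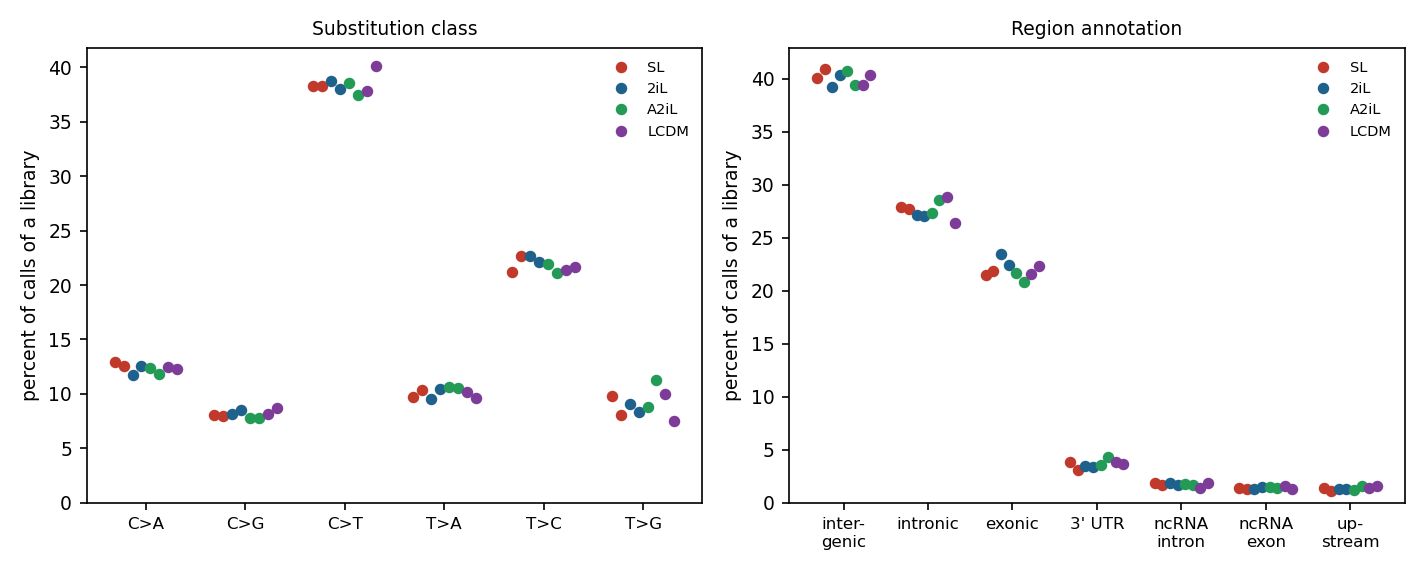
Percent of the calls of each library in the 6 strand-folded substitution classes (left) and the 7 region annotations tested (right). Each point is a library, coloured by medium, with SL 3 and SL 5 leftmost in each class. C>T is the largest class, with both SL libraries at 38.3%, and intergenic the largest region, with SL at 40.1 and 40.9%.

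The alternative-allele fraction, the share of reads with the called base, had a slightly lower median in SL at sites called everywhere. This difference passed the test, unadjusted, under some settings only. Over all calls its median was 0.239 and 0.238 in SL, against 0.25 and 0.235 in 2iL, 0.239 and 0.246 in A2iL, and 0.25 and 0.254 in LCDM (difference -0.00717, exact two-sided permutation p = 0.321). At the 666 sites called in all 8 libraries the median was 0.2995 and 0.304 in SL. It was 0.3145 and 0.3125 in 2iL, 0.319 and 0.313 in A2iL, and 0.3035 and 0.318 in LCDM. SL 5 lay above LCDM 3, and SL 3 was the lowest of the 8. The mean was 0.302 ± 0.00318 in SL and 0.313 ± 0.00553 in the serum-free libraries (SD, n = 2 and 6). The difference of -0.0117 did not pass (exact permutation p = 0.0714). At the 396 of these sites that lay outside duplications and repeats it was 0.317 and 0.3245 in SL and 0.3275 to 0.3445 in the serum-free libraries, without overlap. There the difference of -0.0147 passed, at the smallest p that 2 against 6 libraries allow (exact two-sided permutation p = 0.0357). That p was not adjusted over results or settings. With at least 20 reads in library and control the difference was -0.00967 and did not pass (exact permutation p = 0.179). In the 2iL-F libraries, at the 636 sites called in all 10 ESC libraries, the median was 0.333 and 0.339, above all 8 libraries on feeders. How much feeder DNA each library held was not measured, and the cause of these differences was not tested.

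**Figure D3:**
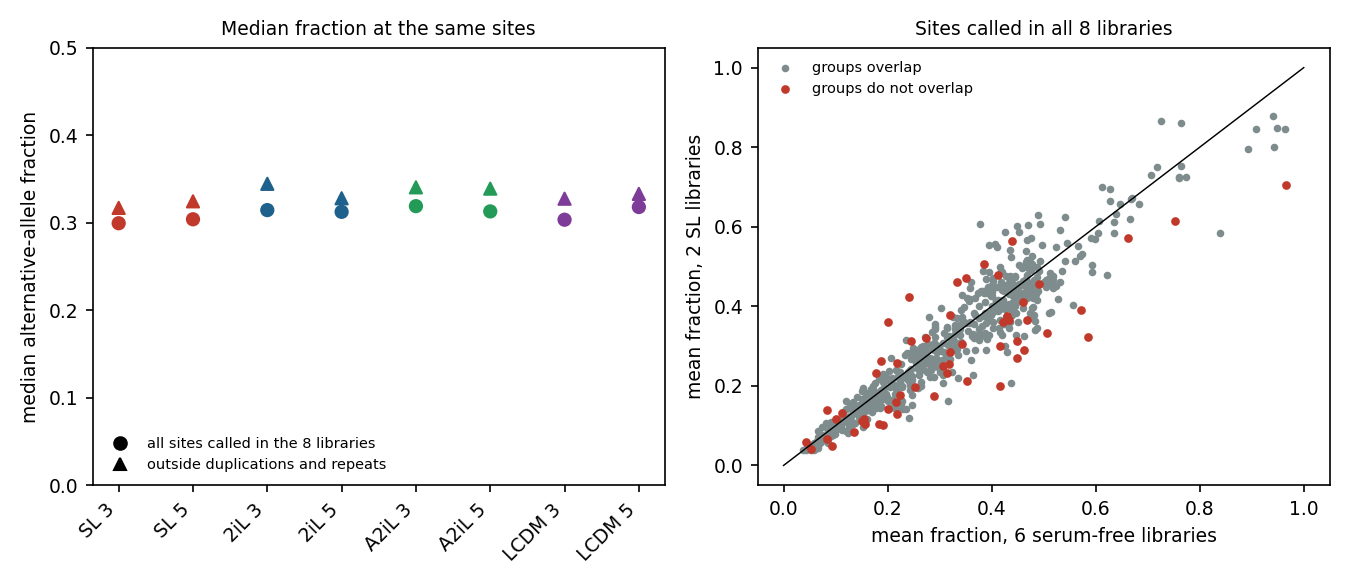
Left, median alternative-allele fraction in each library at the sites called in all 8 (circles, 666 sites) and at those outside segmental duplications and repeats (triangles, 396 sites), coloured by medium. Right, mean fraction in the 2 SL libraries against the mean in the 6 serum-free libraries for each of the 666 sites, with the line of equality. Sites in red are those at which both SL values lie above or below all 6 others, 17 and 38 sites.

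Site by site, no fraction differed after adjustment. In the limma fit over the 666 sites, on log2 of the alternative over the reference reads, 0 passed an adjusted p of 0.05 (0%). At an unadjusted p under 0.05 there were 34 (5.11%), 9 higher and 25 lower in SL, and without weights 0 passed with 46 unadjusted. The estimate was lower in SL at 415 sites and higher at 251, with a median of -0.10 and an interquartile range of -0.29 to 0.10 in log2 odds. The 95% interval of a site reached a median of 0.62 to either side, so smaller differences were not detectable at a typical site even before adjustment. After adjustment over the 666 sites larger differences failed too, such as -0.96 at Crat (limma, adjusted p = 0.58). Both SL values lay above all 6 serum-free values at 17 sites (2.55%) and below all 6 at 38 sites (5.71%). Of the 107 protein-changing sites among the 666, 6 had an unadjusted p under 0.05.

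The 10 sites with the smallest limma p are described here without having passed. Ugt1a1 K80M, in the enzyme that conjugates bilirubin (chr1:88212240), had fractions of 0.143 and 0.136 in SL. It had 0.11 and 0.077 in 2iL, 0.076 and 0.111 in A2iL, and 0.073 and 0.059 in LCDM, at 234 to 369 reads. The SL values lay above all others (log2 odds difference 0.74 ± 0.21 SE, limma, adjusted p = 0.399). Crat Y49H, in carnitine acetyltransferase (chr2:30413129), had 0.391 in both SL libraries. It had 0.64 and 0.655 in 2iL, 0.554 and 0.469 in A2iL, and 0.518 and 0.6 in LCDM, all above SL (-0.96 ± 0.30 SE, limma, adjusted p = 0.58). The synonymous Vmn2r12 K264K, in a pheromone receptor gene within a segmental duplication, had 0.24 and 0.223 in SL and 0.161 to 0.204 in the serum-free libraries (0.47 ± 0.13 SE, limma, adjusted p = 0.399).

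Ddias P706L, in a suppressor of DNA damage-induced apoptosis (chr7:92858589), was nearly fixed in 4 of the serum-free libraries. Its fraction was 0.855 and 0.746 in SL, against 0.964 and 0.984 in 2iL, 0.85 and 0.88 in A2iL, and 1 and 0.98 in LCDM. SL 3 lay between the A2iL values (-1.17 ± 0.47 SE, limma, adjusted p = 0.727). The synonymous Trip12 L1021L, in a ubiquitin ligase gene, had 0.222 and 0.126 in SL and 0.253 to 0.364 in the serum-free libraries. An intronic Parp4 site had 0.256 and 0.324 in SL and 0.4 to 0.56 in the serum-free libraries. Higher in SL by this estimate were intronic sites in Lrrc73, with 0.424 and 0.421 in SL and 0.13 to 0.333 in the serum-free libraries, and in Scgb2b18, a secretoglobin gene in a duplication, with 0.326 and 0.395 in SL and 0.098 to 0.268 in the serum-free libraries. Olfr328 H22Y, in an olfactory receptor gene in a duplication, had 0.052 and 0.062 in SL and 0.057 to 0.105 in the serum-free libraries. The last was an intergenic site (chr5:11772963) with 0.2 and 0.217 in SL and 0.2 to 0.609 in the serum-free libraries. For these 6 sites the adjusted p was 0.727 (limma).

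Depth over the MEF control, by chromosome, gave no chromosome at which SL differed. Each library's log2 ratio of its depth to the MEF depth was taken as a median per chromosome, less the library's median over autosomes, at the sites called in all 8 libraries. Of 15 chromosomes with at least 20 such sites, 0 passed an adjusted p of 0.05 in limma (0%), and 1 had an unadjusted p under 0.05 (6.67%). That was chromosome 3, with 0.281 and 0.228 in SL, against 0.109 and 0.0848 in 2iL, 0.248 and 0.174 in A2iL, and 0.126 and 0.240 in LCDM, at 21 sites. The difference was 0.091 (95% interval 0.0045 to 0.177, limma, adjusted p = 0.592). Over all calls the means at chromosome 3 were 0.0897 in SL and 0.0886 in the serum-free libraries. Differences over the 15 chromosomes ran from -0.07, at chromosome 5, to 0.091, with an interval of 0.086 to either side.

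Chromosome 8, whose gain is known in mouse ESC cultures, had 0.251 and 0.134 in SL. It had 0.227 and 0.257 in 2iL, 0.129 and 0.140 in A2iL, and 0.215 and 0.228 in LCDM, at 45 sites. The SL mean of 0.193 and the serum-free mean of 0.199 ± 0.0524 (SD, n = 6) were close (difference -0.0068, limma, adjusted p = 0.945). Over all calls the means were 0.164 in SL, 0.178 in the serum-free libraries on feeders and 0.476 in 2iL-F. Chromosome X had too few sites for the fit. At its 16 sites called in all 8 it was at -0.458 ± 0.0303 in SL and at -0.377 ± 0.117 in the serum-free libraries (SD, n = 2 and 6), with overlap, and over all calls at -0.559 in SL and at -0.557 in the serum-free libraries.

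**Figure D4:**
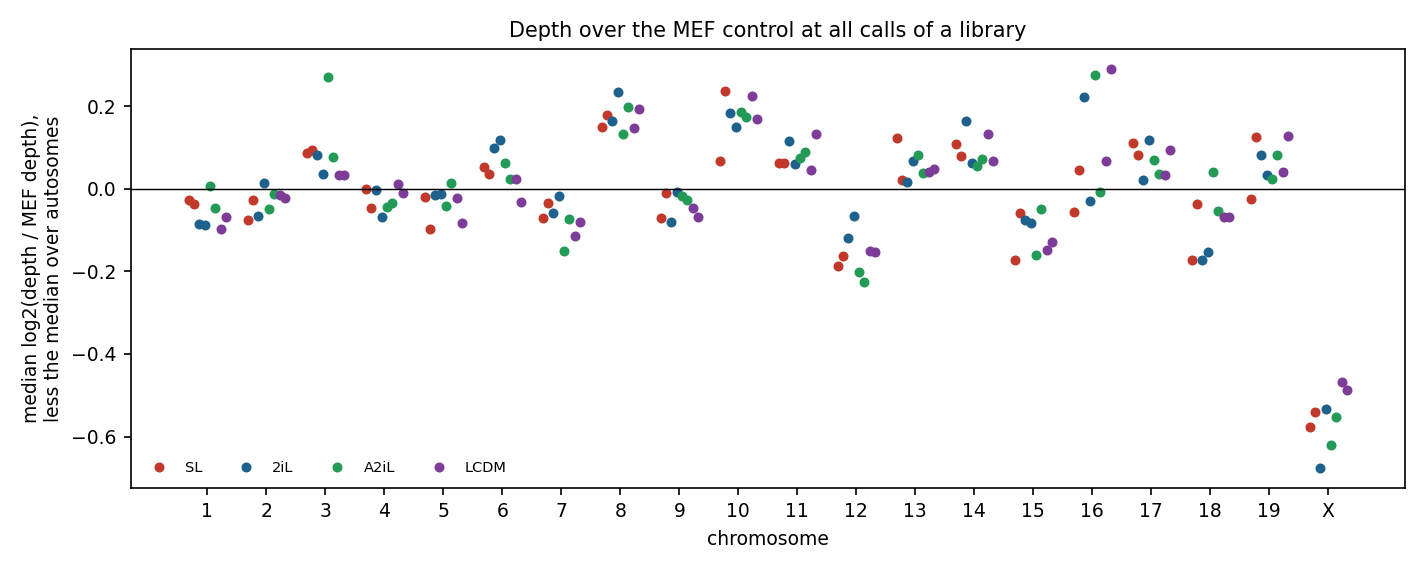
Median log2 ratio of library depth to MEF depth per chromosome at all calls of each library, less the library's median over autosomes. Each point is a library, coloured by medium, with SL 3 and SL 5 leftmost in each chromosome. The SL points lie among the others on chromosome 8 (mean 0.164) and on chromosome X (mean -0.559).

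SL-only sites were spread over the chromosomes. Chromosome 14 held 43 of the 339, and chromosomes 7 and 12 held 39 each, chromosomes that also held the most serum-free-only sites (217, 198 and 151). Over all chromosomes, 8.33% of sites were SL only. Chromosome 19 had 12 SL-only sites among its 68 sites (17.6%), 11 of them with no serum-free call within 10 kb, and chromosome 18 had 3 among 79 (3.8%). They were picked as the autosomes with the highest and lowest share. These shares are descriptions and were not tested.

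SL lists shared about as many sites with serum-free lists as serum-free lists of different media did with each other. Sharing was measured by the Jaccard index, the sites called in both libraries over those called in either. It was 0.491 between the SL libraries and 0.484 ± 0.0135 between SL and serum-free libraries (SD over 12 pairs, which share libraries). Between serum-free libraries of different media it was 0.471 ± 0.00944 (12 pairs), and between those of 1 medium 0.487 ± 0.0251 (3 pairs). The difference of 0.0127 between SL with serum-free pairs and pairs of different serum-free media did not pass (exact permutation p = 0.107). At sites outside duplications and repeats these indices were 0.582 and 0.562. The difference of 0.0196 passed, at the smallest p possible and unadjusted over results or settings (exact permutation p = 0.0357).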

How the data were processed

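The submitters' processing notes name the tools BWA, SAMtools and Picard and the build mm10, with no versions. Which caller made the lists is not stated in the labels or headers. Each deposited line, per the file headers, gives genotype, read count per allele, base quality, depth, alternative-allele fraction and somatic status of a library and of the MEF control. All lines entered; 0 had a dbSNP identifier. Positions are mm10, counted from 1. Of 1672 gene symbols in the 8 lists, 1575 stood in a RefSeq table and 75 only as synonyms. Protein-changing means missense, stop gain or stop loss, numbered on the first transcript listed.

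Per library or pair, exact permutation tests were run over the 28 choices of 2 of 8 libraries (Python 3.11.15, pandas 2.3.3). Site and chromosome fits used limma 3.58.1 in R 4.3.3, on log2((alternative + 0.5)/(reference + 0.5)) of the deposited read counts with inverse binomial variance weights, and on log2 depth ratios. The fits were checked on simulated data. For sites these held binomial counting error only, with no added spread between libraries. Of sites shifted by 1 log2 unit, 68% were then called, so the check does not give the power in the real data. Alternatives were at least 20 reads, at least 5 alternative reads, base quality of at least 30, sites outside duplications and repeats, each library left out, 2iL-F added, and the label number as a block.

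The members and lists were chosen with earlier results of these data known. Named were protein-changing sites called in both SL libraries and no serum-free one; those of 1 SL library, outside duplications, with no serum-free call within 10 kb; up to 10 called in at least 4 serum-free libraries only; the 10 smallest limma p; listed genes with sites of 1 side; and genes with 3 SL-only sites. Same-numbered libraries did not deviate together in fraction at the sites called in every library (r -0.136 to 0.0647). The 12 pairs repeat each r, because both libraries of a medium deviate from their mean in mirror image. The numbers were not taken to pair the libraries, and what the numbers stand for was not tested.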

Additional observations from a re-analysis of the deposited data

Results flagged for a closer look

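Among the 6 serum-free libraries 37 measures were examined for a library far from the others, and 2 met the criterion, where chance gives about 1 in 20. Chromosome 1 in A2iL 5 had a log2 depth over MEF of -0.118, against -0.0228 to 0.0058 in the other 5. Chromosome 5 in LCDM 3 had 0.0186, against -0.105 to -0.0667 in the other 5. The SL libraries had -0.0817 on average at chromosome 1 and -0.141 at chromosome 5, each at the sites called in all 8 libraries.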

How the results depend on the processing

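Results past the threshold under an alternative only were few. Over the reruns of the 13 results compared, 5 passed where the main setting did not. Another 173 kept their outcome and 6 changed sign. Their p-values were not adjusted over results or settings. The median fraction at sites called in every library differed by -0.0123 with at least 5 alternative reads and by -0.0147 outside duplications and repeats (exact permutation p = 0.0357 for both). It differed by -0.0088 to -0.0138 with a library left out (p = 0.0476 without LCDM 3, the smallest possible there, exact permutation). LCDM 3, at 0.3035, was the only serum-free library below SL 5, at 0.304, in the main setting. With at least 20 reads the median fraction differed by -0.00967 and did not pass (exact permutation p = 0.179). There SL 5, at 0.286, lay above LCDM 3, at 0.283. The sharing difference was 0.0196 outside duplications and repeats (exact permutation p = 0.0357) and 0.00442 to 0.0127 under the other settings that kept all libraries. C>A outside duplications and repeats passed before adjustment only (0.633, exact permutation p = 0.0357). Calls per library differed by -55.7 to -4.67 with a library left out. SL-only sites ran from -48.1 (without A2iL 5) to -16.0 against the mean of pairs with a library left out, and were -2.07 with at least 5 alternative reads. Signs turned for sites in both SL libraries outside duplications and repeats (-2.68), and for genes of 1 side (-23.9 to 0.714 with a library left out; 0.714 without SL 5). They also turned for the transition share (-0.766 to 0.673; 0.673 without SL 3, 0.185 without 2iL 3 and 0.265 without LCDM 5) and the protein-changing share (-1.72 to 0.462). The C>T share was -0.356 to 0.187 with a library left out, 0.0176 with at least 20 reads, 0.00933 with at least 5 alternative reads and 0.187 without LCDM 5. For all of these the cause was not tested. With the label number as a replicate block, calls per library differed by -30.2 (exact permutation p = 0.375) and SL-only sites by -38 (exact permutation p = 0.0625). No permutation p can go below 0.0625 with the block, so these say nothing about stability, and in limma the block gave no call either. No setting gave a site or chromosome past the adjusted threshold in limma (lowest adjusted p 0.107 and 0.234), and 15 to 46 sites had an unadjusted p under 0.05. Without an SL library the smallest exact p is 0.143, so those fits say nothing about stability. The CpG share of C>T calls was not run, because no genome was used here.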
